A study of Mus musculus with 10 samples.

Results

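Matrix metalloproteinases (MMPs) are zinc-dependent proteases that cut collagens, laminins, proteoglycans and other proteins around the cell, and tissue inhibitors of metalloproteinases (TIMPs) are small secreted proteins that bind their active site. MMPs are made as inactive precursors, and some are secreted while the membrane-type MMPs are held at the cell surface. In the brain they are known for remodelling of the vessel wall and of the matrix around synapses, and after injury for opening of the blood-brain barrier and for scar formation. The 10 genes described here were chosen by name: 6 proteases (Mmp2, Mmp12, Mmp14, Mmp15, Mmp16 and Mmp24) and 4 inhibitors (Timp1, Timp2, Timp3 and Timp4), of 55401 genes in the table. All 10 were found, each in 1 row, and 9 passed the expression filter of at least 0.5 FPKM (fragments per kilobase of transcript, scaled to library size) in at least 5 of the 10 libraries. Mmp12 did not.

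The libraries came from mouse cerebral cortex, 5 labelled TBI (traumatic brain injury) and 5 labelled Sham, from 5 mice each by the design text. The series' design text calls the control mice naive rather than sham-operated, and the titles' word is used here. Strain, sex, age, injury model and time after injury are not given in the sources used here, so the time of these values in the course of an injury is unknown. In whole tissue, more cells of a type and more RNA per cell cannot be told apart.

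Total estimated counts ranged from 47641137 to 71272644 per library. Markers of cortical neurons were present in every library, with a summed level of 874.4 to 1031 FPKM in TBI and 988.2 to 1134 in Sham for 7 genes. The library of TBI replicate 1 stood apart in 5 choroid plexus markers, Ttr (transthyretin) foremost. Their summed level was 864.7 FPKM there, 1.04 to 4.36 in the other TBI libraries and 1.15 to 29.9 in Sham, and 0 of the 2 tested choroid markers passed in edgeR, 0 at an unadjusted p under 0.05 and 0 in DESeq2. Results for called members are given with and without that library.

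Among the 9 tested members, Timp1 and Mmp2 were higher in TBI, 0 were lower, and 7 did not pass. Timp1, an inhibitor known to be induced in reactive astrocytes, rose 3.88-fold, and Mmp2, a gelatinase, rose 1.76-fold. Mmp12, the macrophage elastase, lay below the filter with counts in TBI libraries alone. The inhibitors Timp3 and Timp4 and the membrane-type proteases Mmp15, Mmp16 and Mmp24 did not pass, with log2 changes from -0.06 to 0.07. The test was edgeR's quasi-likelihood test with Benjamini-Hochberg adjustment over all 16316 tested genes at a threshold of 0.05. That test called 4.04% of all tested genes, 3.57% higher and 0.472% lower. At an unadjusted p under 0.05 the members higher in TBI were 3, with Timp2 added, and 0 were lower, and DESeq2 called the same 2 higher and 0 lower. The median log2 change of the 9 members was 0.07, beside -0.01 over all tested genes.

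The sequences around the start sites of Timp1 and Mmp12 are shown because these members had groups that did not overlap. RefSeq windows (GRCm38.p6) of 250 bases before to 50 after the start were matched for 8 of the 10 members, Mmp12 having 2 starts, and Mmp2 and Mmp16 are named only. The motifs searched, on both strands, were TGANTCA, which holds the consensus of AP-1 (Fos and Jun dimers), its variant TGANTAA, picked after the Timp1 window was read, and AGGAAG, a core bound by ETS factors. They are in capitals, and none overlaps another in these windows.
Timp1, chrX:20869916-20870215, plus strand: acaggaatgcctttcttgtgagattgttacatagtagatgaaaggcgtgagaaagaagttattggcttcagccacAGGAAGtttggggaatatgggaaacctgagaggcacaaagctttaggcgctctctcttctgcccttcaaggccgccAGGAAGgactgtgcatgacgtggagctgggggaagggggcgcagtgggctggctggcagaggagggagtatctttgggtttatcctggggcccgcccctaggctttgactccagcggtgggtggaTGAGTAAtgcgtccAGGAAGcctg
Mmp12, first start, chr9:7344147-7344446, plus strand: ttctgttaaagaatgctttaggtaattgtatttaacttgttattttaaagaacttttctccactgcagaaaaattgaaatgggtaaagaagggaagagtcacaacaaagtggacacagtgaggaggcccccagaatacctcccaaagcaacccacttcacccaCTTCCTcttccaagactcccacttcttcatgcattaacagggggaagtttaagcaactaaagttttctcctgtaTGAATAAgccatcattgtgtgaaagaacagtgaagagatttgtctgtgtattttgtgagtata
Mmp12, second start, chr9:7347124-7347423, plus strand: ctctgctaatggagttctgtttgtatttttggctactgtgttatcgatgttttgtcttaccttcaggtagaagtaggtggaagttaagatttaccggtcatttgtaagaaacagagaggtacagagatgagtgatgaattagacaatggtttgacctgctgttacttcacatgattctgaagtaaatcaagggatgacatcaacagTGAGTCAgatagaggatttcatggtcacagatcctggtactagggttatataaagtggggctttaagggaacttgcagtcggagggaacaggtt
TGANTCA was found in 7.81% of 32817 mouse windows of this length, TGANTAA in 10.6% and AGGAAG in 35.4%. With position 0 at the start base, the Timp1 window held TGANTAA at 26 and AGGAAG at -175, -99 and 40. The window of the first Mmp12 start held TGANTAA at -13 and AGGAAG, on the minus strand, at -87, and that of the second start held TGANTCA at -44. The windows of Timp3, Timp4 and Mmp14 held 1 AGGAAG each, and those of Timp2, Mmp15 and Mmp24 held 0 matches of the searched motifs. A match of letters does not show that a factor binds there.

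Timp1 (ENSMUSG00000001131, mm10 chromosome X, 20870166 to 20874735, plus strand) encodes a soluble inhibitor of most secreted MMPs. Its levels were 2.41, 2.38, 1.80, 1.13 and 1.79 FPKM in TBI replicates 1 to 5. In Sham replicates 1 to 5 they were 0.589, 0.571, 0.161, 0.402 and 0.615 FPKM. The lowest TBI library was above the highest Sham library, and TBI replicate 4 and Sham replicate 3 were the lowest of their groups. For scale, 6.33% of all tested genes had groups that did not overlap, 5.6% with TBI higher and 0.729% with TBI lower. The means were 1.902 ± 0.525 FPKM (SD, n = 5) in TBI and 0.468 ± 0.191 in Sham (log2 fold change 1.96, approximate SE 0.33, 95% interval of the fold 2.35 to 6.40, edgeR adjusted p = 0.0061). It is a low gene: 585 estimated counts in the TBI libraries and 155 in the Sham libraries, where about 4 counts stand for 1 fragment, so the Sham level is the less precise of the pair. Of the Sham libraries 3 reached 0.5 FPKM, as did all 5 TBI libraries. Without TBI replicate 1 the log2 change was 1.86 (edgeR adjusted p = 0.0182), and leaving out any single library kept the call, with log2 changes from 1.75 to 2.10.

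Timp1 lies inside Syn1, a synaptic vesicle gene on the opposite strand, within Syn1 introns, since the exons of both genes share 0 bases in GENCODE M21. Syn1 was at 196.9 ± 17.2 FPKM in TBI and 195.1 ± 17.5 in Sham and did not pass (log2 change -0.03, edgeR adjusted p = 0.932). Timp4 and Timp3 are likewise inside Syn2 and Syn3 on the opposite strand, with 90 and 1733 exonic bases in common. The strandedness of the libraries is not given in the sources used here, so reads over those shared bases cannot be told apart by gene. Syn2 was at 55.4 ± 10.1 FPKM against 48.8 ± 6.98 (edgeR adjusted p = 0.690), and Syn3 at 0.581 ± 0.0786 against 0.636 ± 0.200 (edgeR adjusted p = 0.808). Mmp24 shares 637 exonic bases with BC029722 on the opposite strand, which was at 33.2 ± 1.35 against 33.4 ± 2.39 FPKM (edgeR adjusted p = 0.791). Cep295nl, inside Timp2 on the same strand with 0 shared exonic bases, held 68 estimated counts in TBI and 66 in Sham. Gm11860 inside Mmp16 and Gm17482 around Timp4, both on the opposite strand, were at 0 counts in every library.

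Timp2 was the most abundant member in both groups and is the inhibitor that, with Mmp14, forms the complex in which the Mmp2 precursor is activated. It is on mm10 chromosome 11, 118301069 to 118355740, minus strand. Its levels were 102.8, 131.5, 87.4, 112.0 and 81.98 FPKM in TBI replicates 1 to 5. In Sham replicates 1 to 5 they were 89.4, 90.8, 64.7, 67.3 and 78.4 FPKM. The groups overlapped, with TBI replicates 3 and 5 below the 2 highest Sham libraries. The means were 103.1 ± 19.9 and 78.1 ± 12.1 FPKM, and the difference did not pass (log2 change 0.36, 95% interval 0.06 to 0.66, edgeR adjusted p = 0.225). An exact two-sided permutation test of its FPKM, unadjusted, gave p = 0.0476.

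Timp3, an inhibitor that stays bound to the matrix, ranged from 11.96 to 16.1 FPKM in TBI and from 11.7 to 14.5 in Sham. Its log2 change was 0.07 (95% interval -0.11 to 0.24, edgeR adjusted p = 0.789). Timp4, the fourth inhibitor of the family, ranged from 4.16 to 4.95 FPKM in TBI and from 3.99 to 5.01 in Sham, with a log2 change of 0.03 (95% interval -0.14 to 0.19, edgeR adjusted p = 0.925). For both genes these intervals leave out a change as large as that of Timp1.

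**Figure D1:**
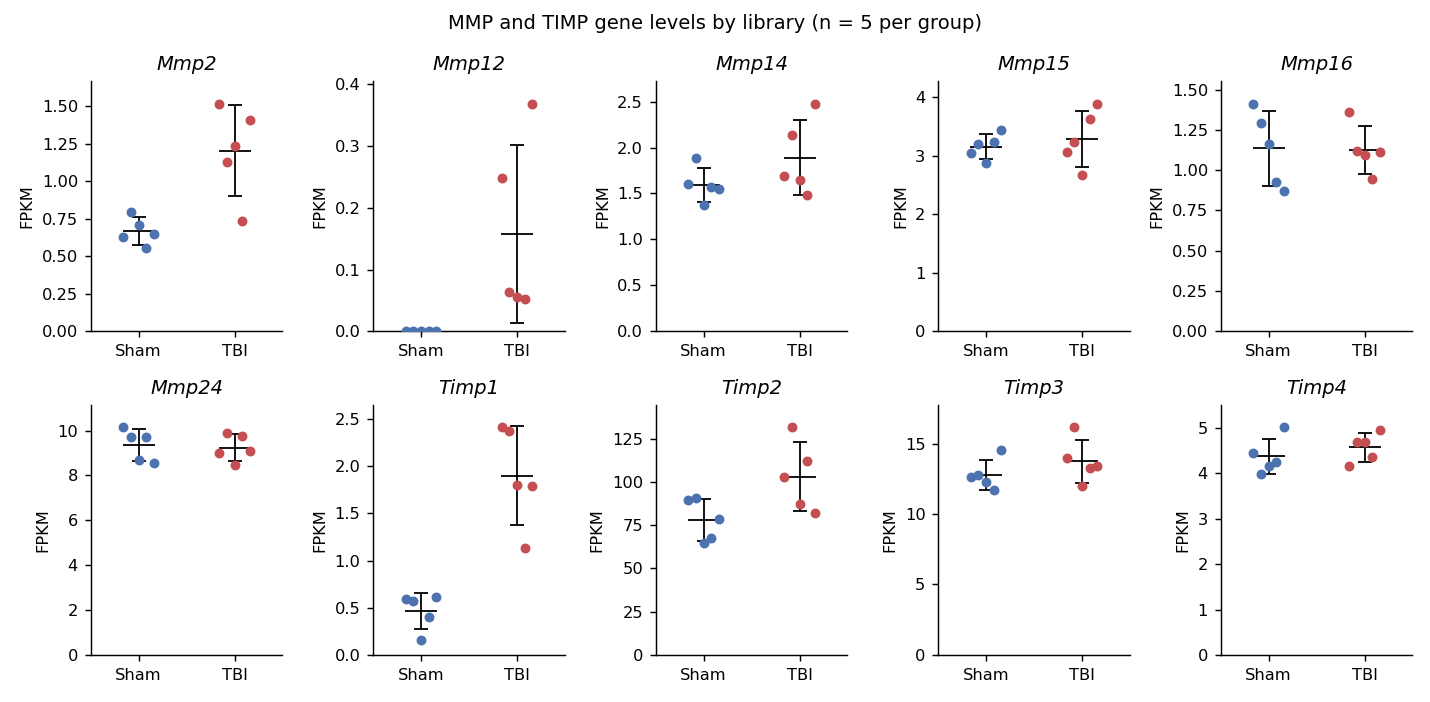
Level in FPKM (linear axis from 0, a scale of its own in each panel) of the 10 genes in each library. Points are libraries, blue for Sham and red for TBI, and the bars are the mean ± SD of 5. Timp1 and Mmp12 are the panels in which the groups do not overlap, Mmp2 overlaps through TBI replicate 4 at 0.737 FPKM, and Mmp12 is at 0 in all Sham libraries.

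**Figure D2:**
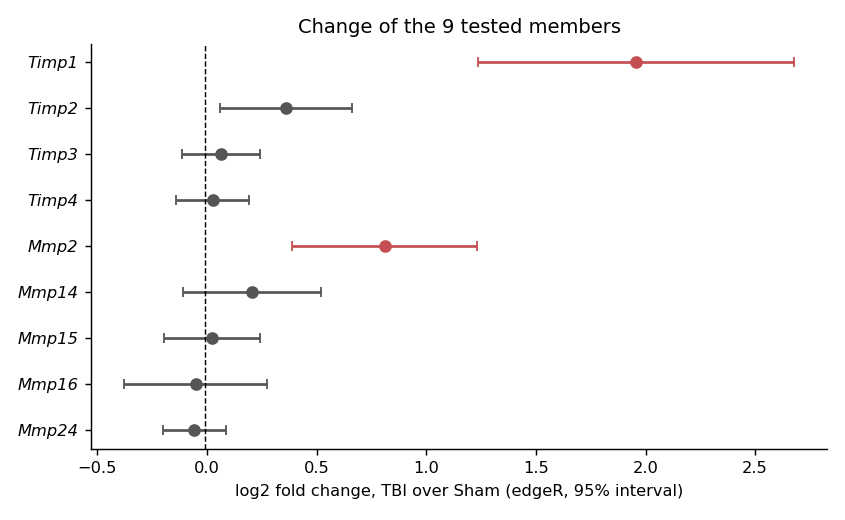
Log2 fold change of TBI over Sham (edgeR) of the 9 tested members, with 95% intervals. Red marks genes past an adjusted p of 0.05 and the dashed line is the median of all tested genes at -0.01. Timp1 at 1.96 and Mmp2 at 0.81 are the red points, and the other 7 are grey.

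Mmp2 (ENSMUSG00000031740, mm10 chromosome 8, 92827291 to 92853420, plus strand) encodes gelatinase A, a secreted protease of type IV collagen and denatured collagen. Its levels were 1.51, 1.13, 1.23, 0.737 and 1.40 FPKM in TBI replicates 1 to 5. In Sham replicates 1 to 5 they were 0.629, 0.796, 0.7103, 0.551 and 0.646 FPKM. The other 4 TBI libraries were above all Sham libraries, and TBI replicate 4 lay below Sham replicate 2. The means were 1.204 ± 0.301 and 0.667 ± 0.0919 FPKM (log2 change 0.81, approximate SE 0.19, 95% interval of the fold 1.31 to 2.35, edgeR adjusted p = 0.0401). The call is close to the threshold: it was lost on leaving out any library other than TBI replicate 4, with adjusted p from 0.0571 (without Sham replicate 2) to 0.103 (without TBI replicate 1), while the log2 change stayed between 0.72 and 0.95. Without TBI replicate 4 the log2 change was 0.95 (edgeR adjusted p = 0.0034), and without a filter on low values the adjusted p was 0.0650.

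Mmp12 (ENSMUSG00000049723, mm10 chromosome 9, 7344381 to 7369499, plus strand) encodes an elastase secreted by macrophages. The TBI libraries held 98, 38, 32, 23 and 190 estimated counts, which are 0.248, 0.0632, 0.0547, 0.0528 and 0.369 FPKM. All 5 Sham libraries held 0 counts. TBI replicates 1 and 5 together carried 75.6% of the counts, so the group is uneven although every TBI library was above 0. Against a floor of 12 counts over the Sham group, about 3 fragments, Mmp12 was at least 33.7-fold higher in TBI, and at least 21.3-fold higher without TBI replicate 5. In an edgeR fit without a filter, over 32852 genes of which 1.87% were called, 1.74% higher and 0.131% lower, Mmp12 passed (adjusted p = 0.0117), and without TBI replicate 1 the adjusted p was 0.0352. An exact two-sided permutation test of its FPKM gave p = 0.0079, the smallest that 5 against 5 can give. FPKM was set to 0 where the count was 0. The floor covers counting error only. The end of Mmp12 shares 157 exonic bases with Mmp1b on the opposite strand, which is at 0 counts in every library.

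The membrane-type proteases did not pass. Mmp14 (mm10 chromosome 14, plus strand), the membrane-type collagenase that activates the Mmp2 precursor, was at 1.69, 2.13, 1.65, 1.49 and 2.48 FPKM in TBI replicates 1 to 5. It was at 1.60, 1.89, 1.37, 1.57 and 1.55 FPKM in Sham replicates 1 to 5. TBI replicates 2 and 5 were above all Sham libraries and the other 3 were among them (log2 change 0.21, 95% interval -0.11 to 0.52, edgeR adjusted p = 0.578). Mmp15, a further membrane-type protease, ranged from 2.66 to 3.89 FPKM in TBI and from 2.87 to 3.43 in Sham (log2 change 0.02, edgeR adjusted p = 0.954). Mmp16, which is also held at the membrane, ranged from 0.945 to 1.36 and from 0.873 to 1.41 FPKM (log2 change -0.05, edgeR adjusted p = 0.926). Mmp24, a membrane-type protease known in neurons for cutting N-cadherin, ranged from 8.46 to 9.91 and from 8.54 to 10.1 FPKM (log2 change -0.06, 95% interval -0.20 to 0.09, edgeR adjusted p = 0.768). Mmp24 was the most abundant of the 6 proteases in every library. That level, and the ranks and protease sums that use it, may hold reads of BC029722 from the shared exonic bases.

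Ordered by mean FPKM, which is a level per kilobase and can be set between genes, the first 5 members were the same in both groups: Timp2, Timp3, Mmp24, Timp4 and Mmp15. None of these overlapped its neighbour in the order within a group. In Sham, Mmp14, Mmp16, Mmp2, Timp1 and Mmp12 followed, where Mmp16 overlapped Mmp14 and Timp1 overlapped Mmp2. In TBI the order was Timp1, Mmp14, Mmp2, Mmp16 and Mmp12, where Timp1 to Mmp16 each overlapped the neighbour. Timp1 thus moved from rank 9 to rank 6.

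Ratios within a library do not depend on how libraries are scaled and are given as a description. Timp1 made up 0.864 to 1.96% of the summed FPKM of the 4 inhibitors in TBI and 0.198 to 0.624% in Sham, without overlap, while Timp2 made up 80.3 to 85.7% and 79.5 to 84.0%. The ratio of Timp1 to Timp3 was 0.138 ± 0.0327 in TBI and 0.0362 ± 0.0137 in Sham, also without overlap. Mmp2 made up 4.44 to 8.99% of the summed FPKM of the 6 proteases in TBI and 3.45 to 4.79% in Sham, where TBI replicate 4 was within the Sham range. The ratio of Mmp14 to Timp2 was 0.0190 ± 0.0066 in TBI and 0.0206 ± 0.0020 in Sham, and the groups overlapped.

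**Figure D3:**
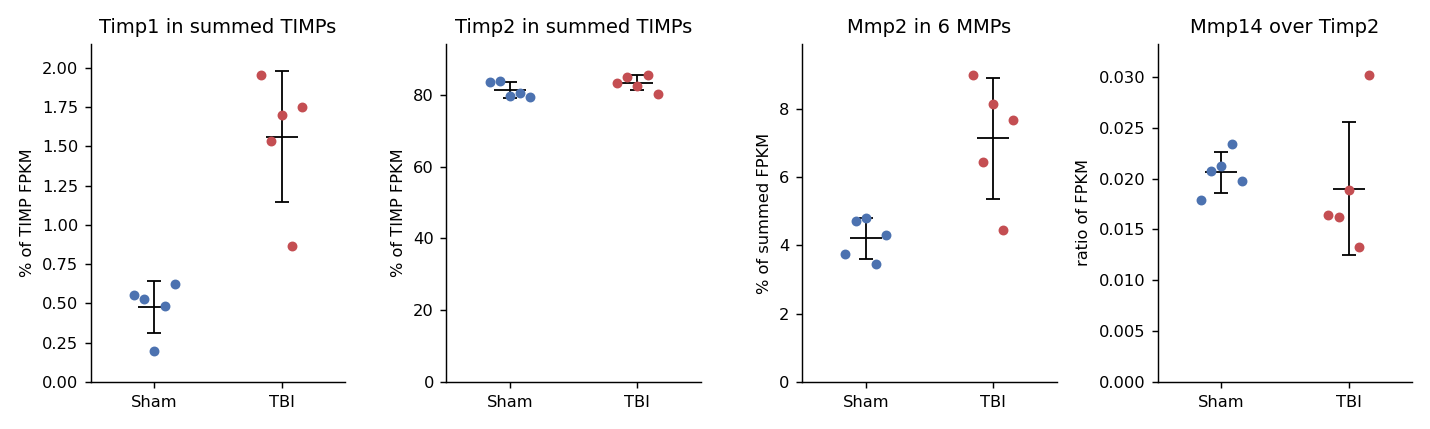
Share of Timp1 and of Timp2 in the summed FPKM of the 4 inhibitors, share of Mmp2 in that of the 6 proteases (all in percent), and the ratio of Mmp14 to Timp2. Points are libraries, and bars are the mean ± SD of 5. The Timp1 share is 0.864% or more in all TBI libraries and 0.624% or less in all Sham libraries, while the Timp2 share and the Mmp14 ratio overlap.

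Markers of several cell types moved with these members, and their part in the results was not tested. For scale, 3.57% of all tested genes were called higher and 0.472% lower. Of 8 microglia markers 7 rose, and their summed level was 169.3 to 249.9 FPKM in TBI and 89.4 to 97.5 in Sham. Of 9 macrophage markers 5 were tested and Lyz2 and Cd5l were called higher, but Cd5l, at 0 counts in all Sham libraries, met the filter through TBI libraries alone. At an unadjusted p under 0.05 they were 4, and in DESeq2 3. The macrophage sum was 31.2 to 113.8 FPKM in TBI and 6.87 to 8.40 in Sham, and most of it was Lyz2, at 67.3 ± 31.7 against 5.03 ± 0.622 FPKM. Mrc1 (1.12 ± 0.303 against 0.725 ± 0.0640 FPKM), Lyve1 and Ly6c2 did not pass. In the fit without a filter 3 of the 9 macrophage markers were called higher, beside 1.74% of all genes in that fit. Ms4a7 was among them, at 0.342 ± 0.106 against 0.0458 ± 0.0211 FPKM (edgeR adjusted p = 0.0022). Cd163, Ccr2 and F13a1, also below the filter, did not pass in that fit. TBI replicate 4, the lowest TBI library in Timp1, Mmp2 and Mmp12, was also the lowest in the microglia, macrophage, astrocyte and neutrophil sums. The neutrophil sum was mostly Csf3r. The 2 highest libraries in Mmp12, TBI replicates 1 and 5, had macrophage sums of 113.8 and 90.3 FPKM, and TBI replicate 3, low in Mmp12, had 87.7. Of 7 astrocyte markers 2 rose, Gfap and Aqp4 (sum 609.1 to 759.0 against 368.4 to 424.9 FPKM), while 5 were higher at an unadjusted p under 0.05 and 4 in DESeq2. Gfap, at 259.7 ± 67.4 against 38.3 ± 6 FPKM, made up most of the difference between the sums. Of 7 fibroblast markers 3 rose (18.1 to 32.8 against 13.8 to 19.9 FPKM) and of 7 endothelial markers 1 rose, Cdh5 (37.5 to 44.8 against 31.6 to 39.99 FPKM). Of 7 mural markers 0 rose or fell in edgeR (1 higher and 1 lower at an unadjusted p under 0.05, 0 in DESeq2), with sums of 61.9 to 78.1 and 64.2 to 75.1 FPKM. Oligodendrocyte, precursor and lymphocyte markers (6, 4 and 1 tested) had 0 genes called in edgeR, 0 at an unadjusted p under 0.05 and 0 in DESeq2. The neutrophil markers Ly6g and Elane were at 0 counts in all libraries, and 1 of 7 such markers was tested and rose, Csf3r. The neutrophil sums were 4.03 to 7.89 against 1.52 to 1.79 FPKM. Most of them was Csf3r, at 5.496 ± 1.281 against 1.496 ± 0.3333 FPKM. In the fit without a filter S100a8, S100a9, Retnlg and Mpo did not pass (edgeR adjusted p = 0.9187, 0.6094, 0.4339 and 0.6923). A rise of neutrophil markers other than Csf3r was thus not shown.

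Most other MMP genes lay below the filter. Of 17 further members of the family 5 had 0 counts in every library (Mmp1a, Mmp1b, Mmp7, Mmp10 and Mmp20), 2 passed the filter, and neither passed in edgeR (0 at an unadjusted p under 0.05, 0 in DESeq2). Mmp17, a glycolipid-anchored MMP, was at 31.2 ± 3.98 FPKM in TBI and 29.7 ± 2.09 in Sham, above every protease among the 10 genes. Mmp28 was at 0.751 ± 0.167 and 0.684 ± 0.0688 FPKM. In the fit without a filter, 1 of the 12 with any count was called higher, Mmp19, at 0.411 ± 0.150 against 0.148 ± 0.0398 FPKM (edgeR adjusted p = 0.0351), named after its value was seen. Its call was lost without any 1 of TBI replicates 1 to 3 or Sham replicates 1 to 4 (adjusted p 0.0615 to 0.0994). With the replicate block it was lost as well (edgeR adjusted p = 0.214). In that fit 1.74% of genes were called higher. Mmp11, Mmp27 and Mmp3 were higher there at an unadjusted p under 0.05 and did not pass (edgeR adjusted p = 0.117, 0.274 and 0.418). Mmp27 and Mmp3 held counts in TBI libraries alone, 39 and 23 in all. They were also picked after their values were seen. Mmp9, gelatinase B, was at 0.310 ± 0.0851 FPKM in TBI and 0.322 ± 0.106 in Sham, also named after its values were seen (edgeR without a filter, adjusted p = 0.939).

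Among 13 tested genes of MMP activation, inhibition and uptake (16 listed), 3 rose and 0 fell, with a median log2 change of 0.15. Of all tested genes 3.57% were called higher and 0.472% lower. A2m, which encodes the protease trap alpha-2-macroglobulin, was at 3.79 ± 1.71 FPKM in TBI and 0.263 ± 0.0821 in Sham (log2 change 3.80, edgeR adjusted p = 4.1e-04). It met the filter through TBI libraries alone. Cd63, a tetraspanin that binds the Timp1 protein, was at 9.41 ± 0.722 against 5.17 ± 0.796 FPKM (log2 change 0.82, adjusted p = 0.0014). Cd44, a hyaluronan receptor that can hold MMPs at the cell surface, was at 1.33 ± 0.219 against 0.528 ± 0.241 FPKM (adjusted p = 0.0351). The Cd44 call was lost without TBI replicate 1, 2, 3 or 5 or Sham replicate 3 or 4 (adjusted p 0.0533 to 0.0897). Furin, the convertase that activates membrane-type MMPs, and Reck, a membrane-anchored MMP inhibitor, did not pass, with log2 changes of 0.12 and -0.06.

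Related proteases were not called. Of 8 tested ADAM sheddases 0 passed in edgeR, while 4 were higher at an unadjusted p under 0.05 and DESeq2 called 1, Adam8 (1.45 ± 0.255 against 0.930 ± 0.161 FPKM, edgeR adjusted p = 0.0682). Adam17, the enzyme that releases TNF, was at 3.05 ± 0.392 against 2.24 ± 0.468 FPKM (edgeR adjusted p = 0.219). Of 11 tested ADAMTS proteases, which include the aggrecanases, 0 passed in edgeR, 1 was higher at an unadjusted p under 0.05 and DESeq2 called 0. That gene was Adamts17 (0.643 ± 0.0511 against 0.490 ± 0.101 FPKM, edgeR adjusted p = 0.313), followed by Adamts2, a procollagen processing enzyme (adjusted p = 0.351). The median log2 changes were 0.07 for the sheddases and 0.03 for the ADAMTS genes. Over all tested genes, edgeR called 4.04%.

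Among the proteins MMPs can cut, 4 of 14 interstitial matrix genes rose and 0 fell, with a median log2 change of 0.19. Over all tested genes 3.57% rose and 0.472% fell. The 4 interstitial matrix genes that rose all encode fibrillar collagen chains. Another such chain on the list, Col5a1, did not pass, at 3.61 ± 1.29 against 3.90 ± 1.46 FPKM (log2 change -0.15, edgeR adjusted p = 0.880). Of the 4 genes, 3 (Col1a1, Col1a2 and Col3a1) are also the fibroblast markers that rose. Col3a1 was at 1.502 ± 0.319 against 0.604 ± 0.103 FPKM (log2 change 1.27, edgeR adjusted p = 0.0014) and Col1a1 at 4.003 ± 0.899 against 1.64 ± 0.305 (log2 change 1.25, adjusted p = 0.0015). Col1a2 rose by a log2 change of 0.82 and Col5a2 by 0.75, and the Col5a2 call was lost without any library other than TBI replicate 4 (adjusted p 0.0571 to 0.116). That Col5a2 call was also lost in edgeR without a filter and with the replicate block (adjusted p = 0.0672 and 0.0831). In limma with pseudocounts of 1 and 0.1 Col5a2 did not pass either (adjusted p = 0.0937 and 0.0841). Eln, which encodes elastin, was at 1.14 ± 0.332 against 1.17 ± 0.0849 FPKM and did not pass. Of 16 basement membrane and junction genes 2 rose and 0 fell (median 0.22), beside 3.57% and 0.472% of all tested genes. Lamb2, a laminin chain of vessel walls, was at 5.39 ± 0.334 against 4.02 ± 0.323 FPKM (adjusted p = 0.0087). Dag1, which encodes the laminin receptor dystroglycan, was at 16.7 ± 1.03 against 12.3 ± 1.87 FPKM (adjusted p = 0.0465). On leaving out single libraries the call was kept for Sham replicates 2 and 4 alone and otherwise lost at adjusted p from 0.0524 to 0.108. The Dag1 call was also lost in edgeR without a filter and with a filter of 2 FPKM (adjusted p = 0.0783 and 0.0521). With DESeq2 size factors and with the replicate block it was lost as well (edgeR adjusted p = 0.0514 and 0.0662).

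Of 10 tested genes among the cytokine, AP-1 and STAT3 genes known upstream of Timp1 and MMP transcription (16 listed), 3 rose and 0 fell, with a median log2 change of 0.32. The shares over all tested genes were 3.57% higher and 0.472% lower. Osmr, the oncostatin M receptor, was at 1.02 ± 0.223 against 0.463 ± 0.0451 FPKM (log2 change 1.098, edgeR adjusted p = 0.0018). Osmr reached 0.5 FPKM in 5 TBI libraries and 1 Sham library, so it met the filter through the TBI group. Tgfb1 was at 2.03 ± 0.373 against 1.07 ± 0.136 FPKM (log2 change 0.88, adjusted p = 0.0067). Stat3 was at 4.95 ± 0.315 against 3.85 ± 0.418 FPKM (adjusted p = 0.0495). On leaving out single libraries its call was kept without TBI replicate 2 or Sham replicate 2 and otherwise lost (adjusted p from 0.0603 to 0.124). The Stat3 call was also lost in edgeR without a filter and with a filter of 2 FPKM (adjusted p = 0.0887 and 0.0582). With DESeq2 size factors and with the replicate block it was lost as well (edgeR adjusted p = 0.0569 and 0.145). The AP-1 genes Fos and Jun did not pass and differed in direction. Fos was at 6.04 ± 1.25 against 10.4 ± 3.13 FPKM (edgeR adjusted p = 0.0706), and DESeq2 called it lower. Jun was at 19.2 ± 4.34 against 13.4 ± 2.945 FPKM (log2 change 0.48, edgeR adjusted p = 0.2045). At an unadjusted p under 0.05 in edgeR, 6 genes of this list were higher and 2 lower, and DESeq2 called 4 higher and 1 lower.

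**Figure D4:**
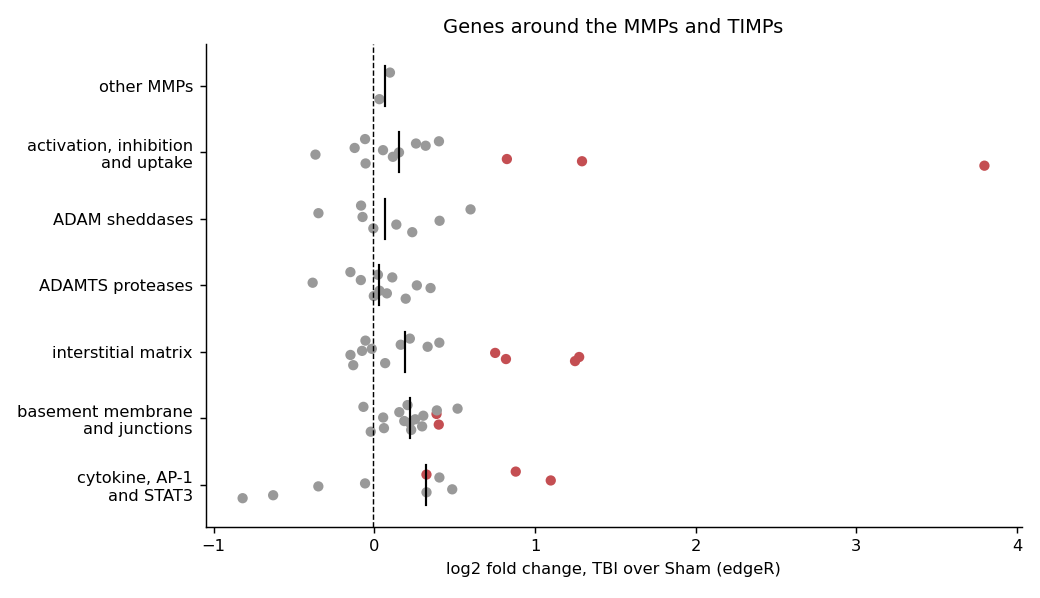
Log2 fold change of TBI over Sham (edgeR) for every tested gene of 7 lists around the MMPs and TIMPs. Each point is a gene, red where the adjusted p is under 0.05, the short bars are list medians and the dashed line is the median of all tested genes at -0.01. A2m at 3.80 is the farthest point, and the ADAM and ADAMTS rows hold grey points alone.

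The genes most alike in pattern were found from Pearson correlations of deviations from the group means in log2(FPKM + 1), over 10 libraries and all tested genes, given as a description. These genes have the highest r over all tested genes, and the r that chance would give was not tested. For Mmp2 they were Stab1 (r = 0.94), Tnfrsf1b (r = 0.94) and Adgre1 (r = 0.93). These 3 genes were also called higher, beside 3.57% of all tested genes. Stab1 was at 3.27 ± 0.519 against 1.41 ± 0.103 FPKM and Adgre1 at 4.49 ± 1.15 against 1.26 ± 0.169. For Timp1 they were LTO1 (r = 0.95), Appl2 (r = 0.94) and Iqank1 (r = 0.94), and none of these 3 passed in edgeR (adjusted p = 0.621, 0.984 and 0.940).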

How the data were processed

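Gene-level RNA sequencing values of 10 cortex libraries were used. The build was mm10, and cutadapt 1.9, HISAT2 and StringTie are listed, per the submitters' processing notes; other versions, the annotation and the counting tool are not given in the sources used here. Estimated counts, as deposited, held only whole numbers. Of values from 1 to 12, 42.6% were 4, 8 or 12 (25% if even), so about 4 counts appear to stand for 1 fragment. The deposited FPKM values were scaled by the authors and used as deposited, except that they were set to 0 where the estimated count was 0. Sample columns left unused numbered 0.

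Groups and replicate numbers came from the sample titles. Counts were fitted with edgeR 4.0.16 in R 4.3.3 (TMM scaling, two-sided quasi-likelihood test, no covariate), with Benjamini-Hochberg adjustment over all tested genes. The SE is the absolute log2 change over the square root of F. DESeq2 1.42.0 and limma 3.58.1 gave alternatives. The p-values measure the spread between these samples. Named were all members, up to 4 called genes per list by size of change (otherwise the 2 with the smallest p), genes overlapping a member in GENCODE M21 and the 3 most alike. Furin, Reck, Eln, Col5a1, Fos, Jun and the markers were also picked after values were seen. Members, lists and tests were chosen with earlier results of these data known. The fit was also run on simulated counts with the same dispersion for every gene, which checks the code and not the calls in these data.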

Additional observations from a re-analysis of the deposited data

Results flagged for a closer look

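Of 105 sets of 5 values examined (members, named genes, ratios and marker sums), 4 held a library whose distance to the nearest other exceeded 0.71 of the range of its group; chance gives about 1 in 20. Choroid plexus markers summed to 864.7 FPKM in TBI replicate 1, with 1.04 to 4.36 in the 4 remaining TBI samples. The same sum was 29.9 FPKM in Sham replicate 3 against 1.15 to 4.85 in the other Sham libraries. Col3a1 was at 0.421 FPKM in Sham replicate 3 against 0.643 to 0.661 in the rest of that group. The neuron marker sum was 874.4 FPKM in TBI replicate 2, with 998.3 to 1031 in the 4 remaining TBI samples.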

How the results depend on the processing

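Timp1 kept its direction and call under all 19 alternatives, with log2 changes from 0.97 (limma on log2(FPKM + 1)) to 2.10 and adjusted p up to 0.0242. Mmp2 kept its direction under 19 alternatives and lost the call under 11: without a filter, with the replicate block (adjusted p = 0.0807) and on leaving out 9 of the 10 libraries in turn. Mmp12, tested without a filter under 13 alternatives added after seeing the data, lost its call with the replicate block (adjusted p = 0.0832). The other 7 members passed under none of their alternatives. Members called higher numbered 2, and 1 with the replicate block, 1 to 2 with a library left out and 0 with a filter of 2 FPKM, which removes Timp1 and Mmp2. Genes called higher, 582 in all, were 337 with a filter of 2 FPKM and 373 with the replicate block. Genes called lower, 77 in all, were 43 without a filter, 48 with a filter of 2 FPKM, 229 in DESeq2, 42 and 39 in limma with pseudocounts of 1 and 0.1, 29 with the replicate block and 37 to 84 with a library left out. The cause was not tested. Whether the replicate numbers pair the libraries is not given in the sources used here. Deviations of same-numbered libraries correlated at -0.109 to 0.133. Depth limits Mmp12 (381 counts in TBI, 0 in Sham) and the Sham level of Timp1 (155 counts).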
